A study of Mus musculus with 11 samples.

Results

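Most of the genes described here encode the machinery that starts transcription of protein-coding genes: the subunits of RNA polymerase II (Pol II), of Mediator and of TFIID, and the other general transcription factors. Members were taken by symbol from the protein-coding genes of the deposited exon table: the Polr2, Med and Taf series, Tbp, and the Gtf2 series without Gtf2i and its relatives. This gave 78 of 13088 genes, of which 12009 were protein coding: 30 Mediator genes, 13 Pol II genes, 22 TAFs with TBP, and 13 genes of TFIIA, TFIIB, TFIIE, TFIIF and the TFIIH core. The rule uses symbols only, and so also takes in Taf1a, Taf1b, Taf1c and Taf1d, subunits of the Pol I factor SL1, and Taf15, an RNA-binding protein of the FET family. The measurements came from F121-9 cells, an established female mouse embryonic stem cell line of CAST/129 hybrid background, wild type in genotype and grown with LIF and inhibitors of MEK and GSK3. They were transfected with either a non-targeting siRNA at 30 nM (siNT, replicates 1, 2 and 3) or an siRNA against Zc3h4 at the same dose (siZC3H4, replicates 2 and 3). All were exposed to 500 µM 4-thiouridine for 20 minutes before harvest at 47 hours after transfection, and the labelled nascent RNA was sequenced by TT-seq. Another 3 DMSO and 3 dTAG-13 samples, from cells with a degradable ZC3H4, are not analysed here.

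Pol II cannot find a promoter on its own. TFIID, built of TBP and TAFs, recognises the core promoter, TFIIA and TFIIB steady it and position the polymerase, TFIIE and TFIIF join with Pol II, and TFIIH opens the DNA and phosphorylates the polymerase tail. Mediator carries signals from enhancer-bound factors to this assembly through its tail, middle and head, and a separable kinase module limits its contact with Pol II. Most mammalian promoters also fire in the opposite direction and give short-lived upstream antisense RNAs (uaRNAs). ZC3H4 belongs to the Restrictor complex, which attenuates such noncoding transcription. Each member was therefore read in both deposited tables, as nascent exon reads of the gene and, where the authors listed one, as the uaRNA of its promoter.

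Values are depth-normalised reads, that is, whole reads divided by 1 depth factor of the authors for each library. Exon reads totalled 14840637 to 26548710 per library and uaRNA reads 996927 to 2648683, with the highest totals in siZC3H4 replicate 2. The siRNA target was examined first. Zc3h4 had 3465, 3610 and 3363 exon reads under siNT, where the libraries labelled siZC3H4 had 7285 and 6718, a log2 difference of 1.01 ± 0.11 (SE, limma adjusted p = 0.00431; 0.0549 without siNT replicate 1 and 0.0578 without siZC3H4 replicate 2). Nascent reads of the target were thus higher, not lower, in both labelled libraries; the files hold no measure of its mRNA or protein, so "siZC3H4" below means the libraries so labelled. All 8 stem cell markers were in the exon table, with a summed level of 89522 to 106425 in siNT and 75986 to 92314 in siZC3H4 libraries. Of markers of other cell types, 2 of 6 fibroblast, 4 of 6 endoderm, 3 of 4 neural and 1 of 4 trophoblast genes were in the table (Col1a1, Sox17, Neurog2 and Cdx2 are not analysed here). The summed neural level was 686 to 1018 in siNT and 1141 to 1520 in siZC3H4 libraries, mostly Tubb3. Tubb3, Sox1 and Pax6 were each higher in both siZC3H4 libraries than in any siNT library, as were 19.5% of all genes. Of the stem cell markers only Dppa5a was lower in both, as were 12.8% of all genes, and the others overlapped. No marker of any list passed the exon test, and whether these levels bear on the members was not tested. These are bulk samples, in which fewer cells of a type and less RNA per cell cannot be told apart.

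Promoters are shown for 6 members whose uaRNAs carry the results below. The uaRNAs of Polr2a, Med11 and Gtf2b rose, and that of Taf13 fell. Those of Med26 and Taf5l were abundant and were not called with the authors' depth factors. With factors computed from uaRNA reads, both fell relative to the median of all uaRNAs. Each sequence runs from 250 bases before to 50 bases after the RefSeq start, on the gene's strand, in build GRCm38.p6. The windows are chr11:69758584-69758883 on the minus strand for Polr2a, chr11:70451668-70451967 on the plus strand for Med11, chr3:142764997-142765296 on the plus strand for Gtf2b, chr3:108571449-108571748 on the plus strand for Taf13, chr8:72548261-72548560 on the minus strand for Med26 and chr8:124021007-124021306 on the minus strand for Taf5l. Capitals mark every hit, on either strand, of the TATA box letters TATAAA, the SP/KLF letters GGGCGG, the ETS letters CGGAAG, the YY1 letters ATGGCG, the NFY letters CCAAT and the CRE letters TGACGTCA.
Polr2a: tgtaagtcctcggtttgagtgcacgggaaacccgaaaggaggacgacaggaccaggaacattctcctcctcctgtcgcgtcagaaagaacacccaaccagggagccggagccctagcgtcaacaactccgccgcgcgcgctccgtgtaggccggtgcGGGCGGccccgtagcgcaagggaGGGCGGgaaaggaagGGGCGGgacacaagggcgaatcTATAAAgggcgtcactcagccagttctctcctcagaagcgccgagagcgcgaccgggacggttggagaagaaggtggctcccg
Med11: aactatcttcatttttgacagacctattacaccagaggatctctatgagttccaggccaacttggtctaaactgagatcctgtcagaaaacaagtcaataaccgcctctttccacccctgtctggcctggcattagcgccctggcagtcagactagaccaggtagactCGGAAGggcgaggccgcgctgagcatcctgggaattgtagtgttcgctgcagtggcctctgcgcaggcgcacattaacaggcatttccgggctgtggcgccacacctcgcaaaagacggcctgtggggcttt
Gtf2b: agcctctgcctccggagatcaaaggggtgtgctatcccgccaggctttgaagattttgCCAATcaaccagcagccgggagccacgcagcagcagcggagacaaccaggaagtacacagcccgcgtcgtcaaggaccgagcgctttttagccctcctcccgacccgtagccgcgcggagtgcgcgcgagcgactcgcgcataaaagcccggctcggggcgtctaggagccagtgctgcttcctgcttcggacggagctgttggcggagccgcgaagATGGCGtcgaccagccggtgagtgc
Taf13: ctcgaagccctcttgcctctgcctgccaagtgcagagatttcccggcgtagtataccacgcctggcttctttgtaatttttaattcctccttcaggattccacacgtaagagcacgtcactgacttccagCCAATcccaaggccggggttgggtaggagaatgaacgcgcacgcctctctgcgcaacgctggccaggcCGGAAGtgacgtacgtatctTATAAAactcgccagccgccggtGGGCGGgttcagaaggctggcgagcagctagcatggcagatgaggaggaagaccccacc
Med26: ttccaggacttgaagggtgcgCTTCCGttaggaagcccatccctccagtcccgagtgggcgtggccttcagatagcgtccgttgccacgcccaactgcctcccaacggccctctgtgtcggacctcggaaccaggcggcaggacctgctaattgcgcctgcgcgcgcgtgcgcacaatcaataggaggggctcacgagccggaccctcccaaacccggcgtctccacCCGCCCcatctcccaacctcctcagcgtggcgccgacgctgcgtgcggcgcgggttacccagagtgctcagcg
Taf5l: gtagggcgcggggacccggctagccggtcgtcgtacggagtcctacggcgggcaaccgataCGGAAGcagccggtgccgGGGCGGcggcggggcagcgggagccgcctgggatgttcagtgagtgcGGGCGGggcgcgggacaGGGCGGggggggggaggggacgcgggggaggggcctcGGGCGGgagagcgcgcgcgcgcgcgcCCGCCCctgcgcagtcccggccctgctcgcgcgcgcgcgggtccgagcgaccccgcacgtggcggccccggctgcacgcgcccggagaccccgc

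These windows differed in composition and in their hits. The Polr2a window held a TATAAA just downstream of 3 GGGCGG hits, and the Taf13 window held a TATA box with SP/KLF, ETS and NFY hits. The Med11 window had only a CGGAAG hit and 13 CpG dinucleotides at 54.3% GC. The Taf5l window had 53 CpGs at 81.7% GC with 5 GGGCGG hits and a CGGAAG. Gtf2b had a CCAAT upstream and an ATGGCG shortly after its start, and Med26 had a GGGCGG and a CGGAAG, both on the antisense strand.

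Over the members, promoters were GC-rich. Of 78 members, 67 symbols matched the RefSeq promoter table and 63 promoters lay within 500 bases of the start in the exon table. Their median GC content was 58.7% with 22 CpGs, against 52.7% and 7 over all 32851 promoters. GGGCGG stood in 69.8% of member promoters and 35.7% of all, CGGAAG in 49.2% and 16.9%, and ATGGCG in 23.8% and 8.93%. CCAAT, at 36.5% and 37.4%, and TATAAA, at 15.9% and 13.6%, were about as frequent as in all promoters. TGACGTCA was in 2 of 63 promoters, 3.17% against 1.79% of all. The palindrome bound by NRF1 was in 0 of the 63 and in 0.971% of all promoters, which says only that these letters were not in these windows. The 32851 promoters were not limited to protein-coding genes of the exon table, as the members are. These shares were not adjusted for GC content and were not tested.

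In nascent exon reads the initiation machinery stood high, and no member passed the test between the groups. The median member had 502 depth-normalised reads per kb of transcript in siNT libraries, against 177 over all genes. The latter are all 13088 genes, without a filter on low values and not limited to protein-coding genes, as the members are. Of the 77 members tested 0 rose and 0 fell, where 2.22% of all 12482 genes tested rose and 0.144% fell (limma on log2(value + 1), Benjamini-Hochberg adjusted p below 0.05). The median log2 difference, siZC3H4 minus siNT, was 0.03 over members and 0.01 over all genes, with 43 members above 0 and 34 below. Over all 12482 genes tested, 6550 were above 0 and 5932 below. At an unadjusted p below 0.05 there were 6 members, against 15.3% of all genes. On the recovered reads, edgeR's quasi-likelihood test called 0 members and 2.92% of all genes, and DESeq2 called 1 member, Gtf2h4, and 5.08% of all genes. Without siNT replicate 3, Med7 and Med9 rose, in a fit that called 6.52% of all genes. With the replicate number as a block, Gtf2e1, Gtf2h4, Med9, Taf13 and Taf6 rose and Gtf2f1 fell, where 1530 of all genes rose and 830 fell. This fit drops siNT replicate 1 and so compares only same-numbered libraries. The labels name no shared batch for a replicate number. The estimates were fairly narrow: the 95% interval lay within a 2-fold change either way for 74 of 77 members and within a 1.5-fold change for 60. The 3 with wider intervals than 2-fold were Med7, Taf7 and Taf7l.

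**Figure D1:**
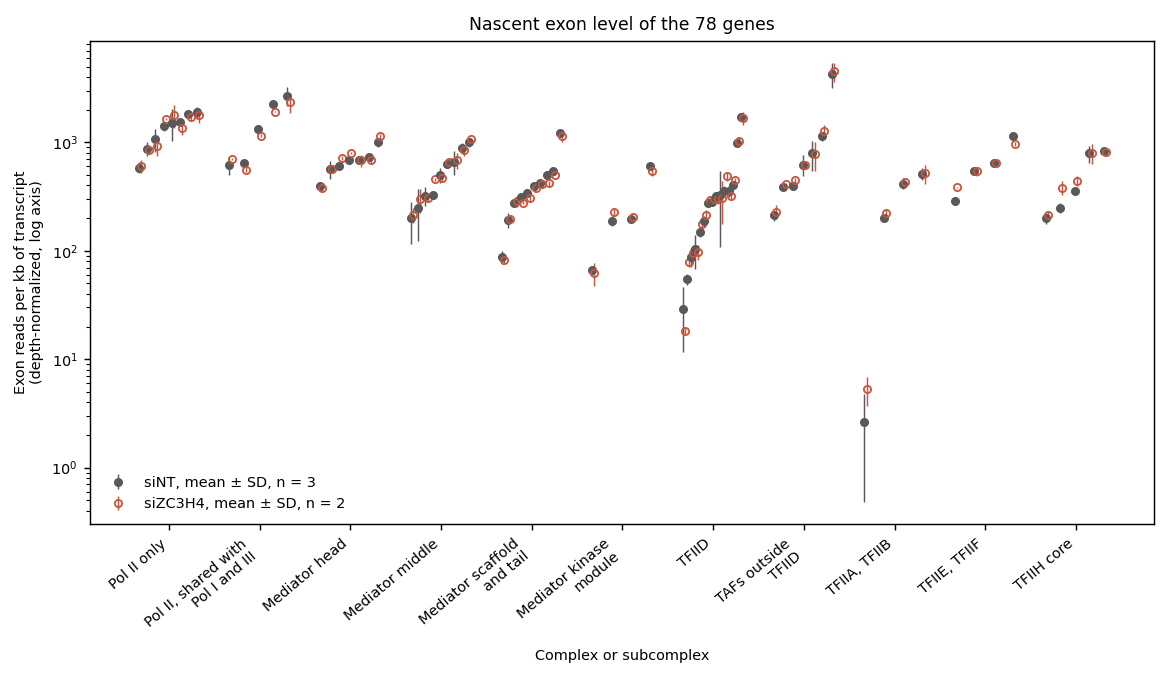
Nascent exon level of each member in depth-normalised reads per kb of transcript (log axis), by complex or subcomplex, as mean ± SD of the 3 siNT (filled) and the 2 siZC3H4 (open) libraries, with genes of a complex ordered by level. Levels run from 2.61 for Gtf2a1l to 4258 for Taf1d in siNT libraries, and the marks of both groups follow each other across the complexes.

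Among Pol II genes the levels per kb in siNT libraries ran from 579 ± 62.0 (SD, n = 3) for Polr2b, the second largest subunit, to 2701 ± 528 for Polr2f, a small subunit shared with Pol I and Pol III. Polr2a, the catalytic subunit whose tail is phosphorylated during initiation (chr11:69733997-69758633, minus strand, mm10), had 1417 ± 147 reads per kb. Its exon reads were 8449, 10367 and 9819 in siNT and 10899 and 11213 in siZC3H4 libraries. Both siZC3H4 libraries were above all siNT libraries, with a log2 difference of 0.22 ± 0.12 (SE, limma adjusted p = 0.466). Of the subunits found only in Pol II, Polr2j was highest at 1893 ± 247 per kb. Polr2b differed by 0.05 ± 0.14 (adjusted p = 0.932) and Polr2d, of the stalk, by -0.02 ± 0.15 (adjusted p = 0.973) on the log2 scale.

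The 5 subunits shared with Pol I and Pol III ran from 613 ± 111 per kb for Polr2k to the level of Polr2f above. Their log2 differences were below 0 for 4 of 5, between -0.22 and -0.18, and 0.20 for Polr2k, and none passed the test. Polr2e, at 2243 ± 214 per kb, had 2233, 2518 and 2092 exon reads in siNT and 1959 and 1940 in siZC3H4 libraries, the lower pair lying below all siNT libraries (log2 -0.22 ± 0.12, limma adjusted p = 0.46). Polr2i, a small subunit of Pol II alone, had 801, 1037 and 636 against 795 and 613, which overlap (log2 -0.21 ± 0.21, adjusted p = 0.741). Over all 13 Pol II genes the median log2 difference was -0.10, with 9 below 0, as were 5932 of all 12482 genes tested. Differences between families were not tested.

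Mediator genes had a median of 461 reads per kb in siNT libraries, from 66.1 ± 6.89 for Med12l, a paralogue of the kinase module's Med12, to 1223 ± 67.2 for Med28. In the head, Med18 was highest at 998.5 ± 96.1 and Med17, a core subunit, lowest at 394 ± 11.0. In the middle, Med10 was highest at 1004 ± 89.3 and Med21 lowest at 199.9 ± 84.3. In the scaffold and tail, Med14, the backbone that joins the modules, was lowest at 87.1 ± 12.4. In the kinase module Med13l was highest at 603 ± 33.5 per kb.

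Med9, of the middle module, showed the largest positive exon difference in Mediator. It had 570, 604 and 666 exon reads in siNT and 839 and 869 in siZC3H4 libraries. The groups did not overlap, and the log2 difference of 0.48 ± 0.14 (SE) gave a limma adjusted p of 0.122. Without siNT replicate 3 Med9 passed, at 0.54 and adjusted p = 0.0491, in a fit that called 6.52% of all genes and also Med7. With the replicate number as a block its limma adjusted p was 0.00243, in a fit where 1530 of all genes rose and 830 fell. That fit drops siNT replicate 1. Med29, of the tail, was the lowest in Mediator, with 678, 600 and 595 against 537 and 499, also without overlap (log2 -0.27 ± 0.14, adjusted p = 0.437). Of the 10 scaffold and tail genes 8 were below 0, as were 5932 of all 12482 genes tested. Log2 differences were -0.09 ± 0.13 for Med1, the nuclear receptor contact, -0.08 ± 0.16 for Med14, -0.06 ± 0.12 for Med17, -0.07 ± 0.12 for Med23, and 0.04 ± 0.12 for Med26, which links Mediator to elongation factors. In the kinase module they were 0.26 ± 0.13 for Med12, 0.06 ± 0.12 for Med13 and -0.14 ± 0.12 for Med13l. None of these passed, with adjusted p of 0.408 or higher.

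The highest level of all members was that of a TAF. Taf1d, a subunit of the Pol I factor SL1, had 4258 ± 1103 reads per kb in siNT libraries, and RefSeq places 6 snoRNA genes inside it, whose reads were not separated here. Within TFIID, Taf10, a histone-fold subunit shared with SAGA, was highest at 1721 ± 127 per kb. Taf7l, a germ cell paralogue of Taf7, was lowest at 28.7 ± 17.1 and had 43, 30.4 and 93.0 exon reads in siNT against 33.4 and 37.3 in siZC3H4 libraries. These overlap, and its log2 difference of -0.48 ± 0.43 (limma adjusted p = 0.7) was the lowest of the members. Among the TAFs outside TFIID, Taf1b of SL1 was lowest at 212 ± 22.7 per kb.

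The largest positive exon differences of TFIID were in Taf13 and Taf6. Taf13, a histone-fold TAF that pairs with Taf11, had 139, 116 and 147 exon reads in siNT and 179 and 207 in siZC3H4 libraries (log2 0.53 ± 0.20, limma adjusted p = 0.256). Taf6, which pairs with TAF9 (not analysed here) in the TFIID core, had 761, 913 and 734 against 1178 and 1033 (0.47 ± 0.15, adjusted p = 0.159). In both genes each siZC3H4 library was above each siNT library. With the replicate number as a block, the limma adjusted p was 0.0134 for Taf13 and 0.00117 for Taf6. That fit drops siNT replicate 1, and in it 1530 of all genes rose and 830 fell. Tbp, the TATA-binding subunit (chr17:15499918-15517427, plus strand, mm10), had 599, 640 and 754 against 558 and 635, with overlap (-0.15 ± 0.16, adjusted p = 0.748). Taf1, the largest TAF, differed by 0.16 ± 0.12, Taf4 by 0.09 ± 0.13, Taf4b, a Taf4 paralogue prominent in the germ line, by 0.26 ± 0.15 and Taf10 by -0.04 ± 0.14 on the log2 scale. Of the 22 TAFs and TBP, 16 were above 0, and the median was 0.09. Over all 12482 genes tested 6550 were above 0, and differences between families were not tested.

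Among the general factors, Gtf2h4, a TFIIH core subunit that anchors the XPB helicase (chr17:35667730-35673714, minus strand, mm10), had the largest exon difference of all members. Its exon reads were 396, 466 and 380 in siNT and 701 and 566 in siZC3H4 libraries, without overlap, a 1.53-fold difference (log2 0.61 ± 0.17, limma adjusted p = 0.105). DESeq2 on the recovered reads called it (log2 0.62, adjusted p = 0.0321) in a fit that called 5.08% of all genes. Gtf2e1, the larger TFIIE subunit, had 821, 815 and 939 against 1148 and 1146 (0.42 ± 0.13, adjusted p = 0.152). Gtf2f1, the larger TFIIF subunit, went the other way without overlap, with 1987, 2157 and 2166 against 1810 and 1706 (-0.26 ± 0.12, adjusted p = 0.338). With the replicate number as a block, the limma adjusted p was 7.35e-05 for Gtf2h4, 0.0034 for Gtf2e1 and 0.0222 for Gtf2f1. That fit drops siNT replicate 1, and in it 1530 of all genes rose and 830 fell. Gtf2b, which is TFIIB itself, hardly differed at all, at 656 ± 86.4 (SD, n = 3) against 659 ± 128 reads (n = 2).

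Levels per kb of the general factors in siNT libraries ran from 2.61 ± 2.13 for Gtf2a1l, a germ cell form of TFIIA that was too low to test, to 1149.97 ± 55.1 for Gtf2f1. In TFIIA and TFIIB the highest was Gtf2b at 515 ± 67.8, and in TFIIE and TFIIF the lowest was Gtf2e1 at 287 ± 23.3. TFIIH core genes ran from 201 ± 23.2 for Gtf2h2 to 825 ± 73.3 for Gtf2h5. Gtf2a1, the large TFIIA subunit, differed by 0.17 ± 0.13 and Gtf2h1, of the TFIIH core, by 0.01 ± 0.18 on the log2 scale.

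Across the 77 tested members, the siZC3H4 libraries were both above all siNT libraries for 13 and both below for 5, against 19.5% and 12.8% of all genes. The 13 included Polr2a, Med12, Gtf2a1 and Gtf2h3 beside those above.

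**Figure D2:**
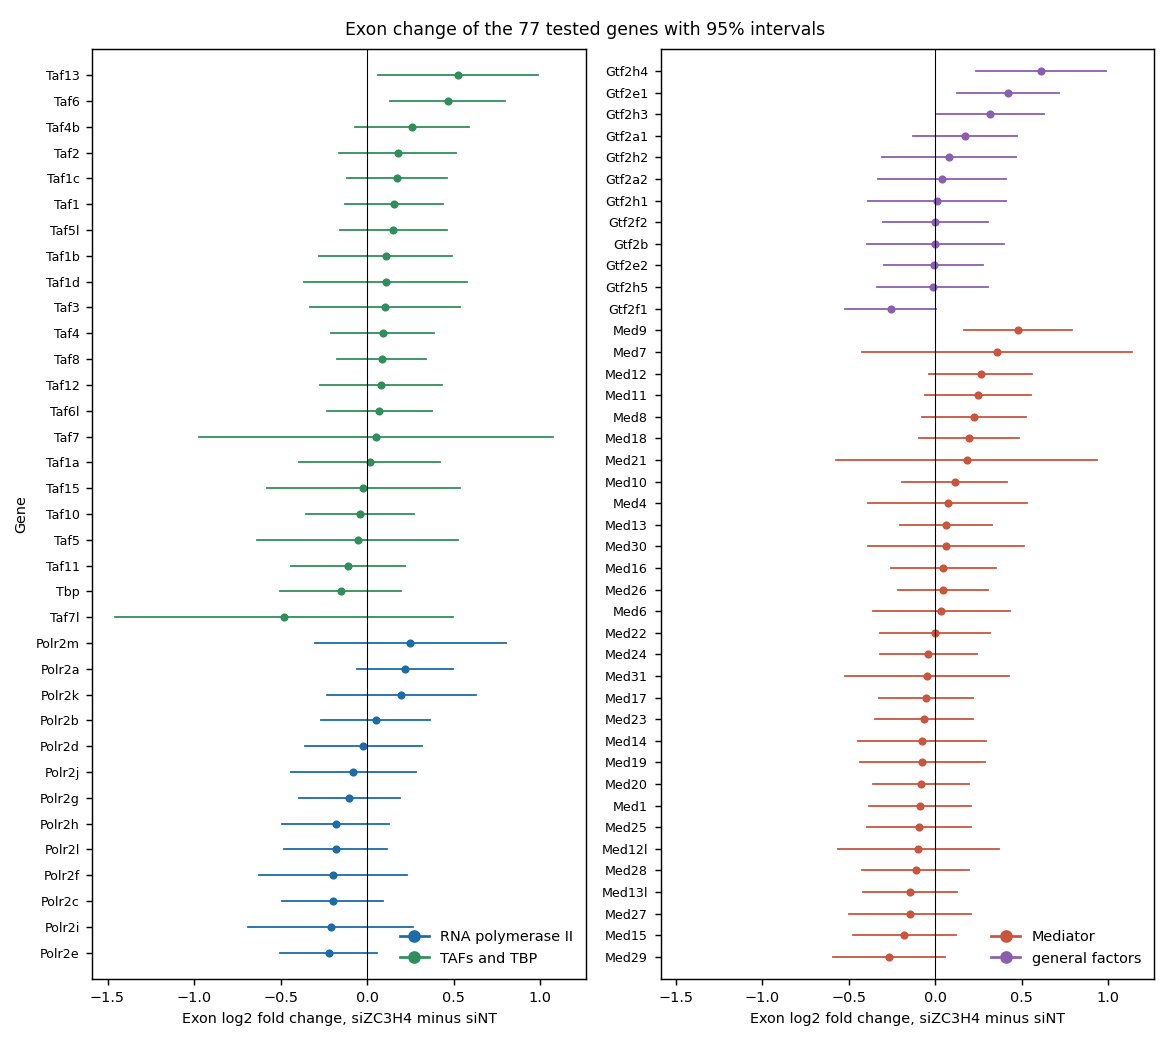
Exon log2 fold change of each tested member, siZC3H4 minus siNT, with 95% intervals from limma, ordered within families. Gtf2h4 is highest at 0.61 and Taf7l lowest at -0.48, and no member passed an adjusted p of 0.05 in this fit.

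Several members varied more between libraries of a group than between groups. Taf7, a TFIID subunit that restrains Taf1, had 770, 534 and 1853 exon reads in siNT and 691 and 1298 in siZC3H4 libraries. Replicate 3 was above replicate 2 in both groups, 3.47-fold in siNT and 1.88-fold in siZC3H4. The ratio of replicate 3 to replicate 2 was 2.49 and 1.44 for Med7, 2.43 and 1.23 for Med21, 1.87 and 1.40 for Polr2m, and 0.613 and 0.771 for Polr2i. It had the same direction in both groups for 61 of 77 members, or 79.2%, as it did for 74.1% of all genes. The labels give no shared batch for a replicate number. The median log2 range over the 5 libraries was 0.39 for members and 0.52 for all genes.

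**Figure D3:**
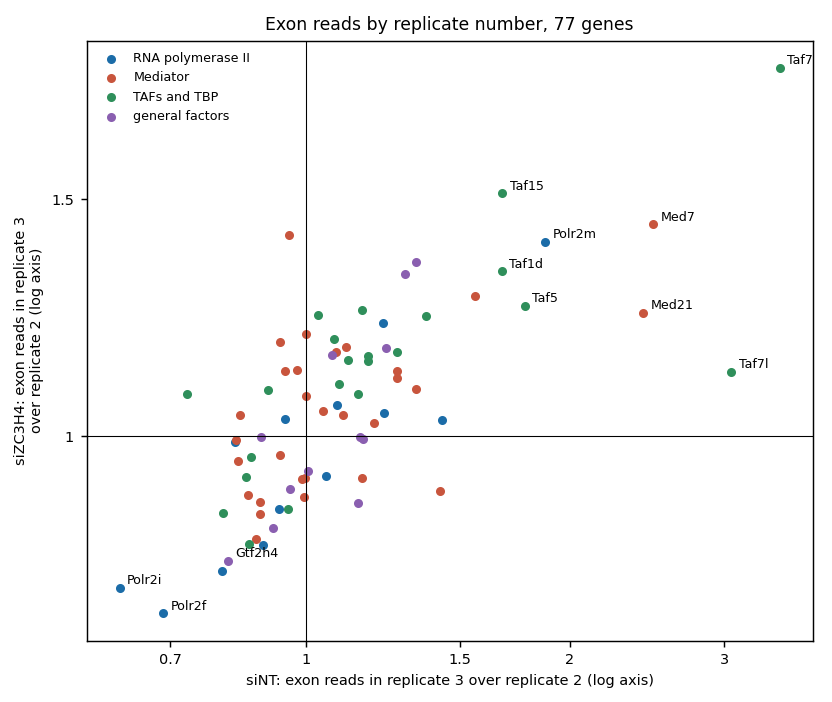
Ratio of replicate 3 to replicate 2 in exon reads on log axes, siNT libraries on the horizontal and siZC3H4 libraries on the vertical axis, with a point for each tested member. Points lie mainly in the quadrants where both ratios are above 1 or both below 1, 61 of 77, with Taf7 farthest to the right.

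The uaRNAs of the same genes behaved otherwise. Of the 78 members, 43 had a listed uaRNA and 37 were abundant enough to test, and 21 of these rose in the libraries labelled siZC3H4 while 1, that of Taf13, fell and 15 passed no test. Over all 5124 uaRNAs tested, 62.1% rose and 1.13% fell, so the members' 56.8% that rose is near the background. The median member log2 difference was 0.84, a 1.79-fold difference, against 0.88 over all uaRNAs. Of the 37 members 13 rose by 2-fold or more, as did 42.6% of all uaRNAs. Both siZC3H4 libraries were above all siNT libraries for 24 of 37 and below for 1, against 73.7% and 2.11% of all uaRNAs. The 6 listed but too low to test were Med6, Med15, Med23, Med25, Med27 and Polr2g, and that of Med23 had 2.67 ± 1.39 reads in siNT libraries.

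The rise did not have the same size in both labelled libraries. The median member's log2 deviation from its siNT mean was 1.00 in siZC3H4 replicate 2, the most deeply sequenced library, and 0.71 in replicate 3, where the siNT libraries stood at 0.04, -0.22 and 0.12. Without siZC3H4 replicate 2, 12 members rose and 0 fell, beside 35.9% and 0.312% of all uaRNAs. The calls lost were those of Polr2j, Polr2k, Gtf2f2, Taf1, Taf1a, Taf1b, Taf5, Taf12 and Taf15, and the fall of Taf13. Without siNT replicate 1, Taf3 and Taf1b were not called (limma adjusted p = 0.0569 and 0.0567). Without siNT replicate 2, Taf3 and Taf15 were not called (limma adjusted p = 0.0759 and 0.214). Nor was Taf15 called by DESeq2 (adjusted p = 0.074). The counts also turn on how libraries are scaled. With scaling factors computed from the uaRNA reads themselves, the median of all uaRNAs moved to 0.01 (median of ratios) or 0.03 (TMM). Such factors centre the uaRNAs by construction, so rises and falls in these fits are relative to the median uaRNA. Then 4 members rose (Taf7, Med11, Polr2a and Taf4b) and 7 fell (Med12l, Med26, Polr2h, Taf13, Taf5l, Taf6l and Taf8) under either method, beside 10.5% and 11.5% of all uaRNAs with the former and 10.9% and 11.0% with the latter.

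**Figure D4:**
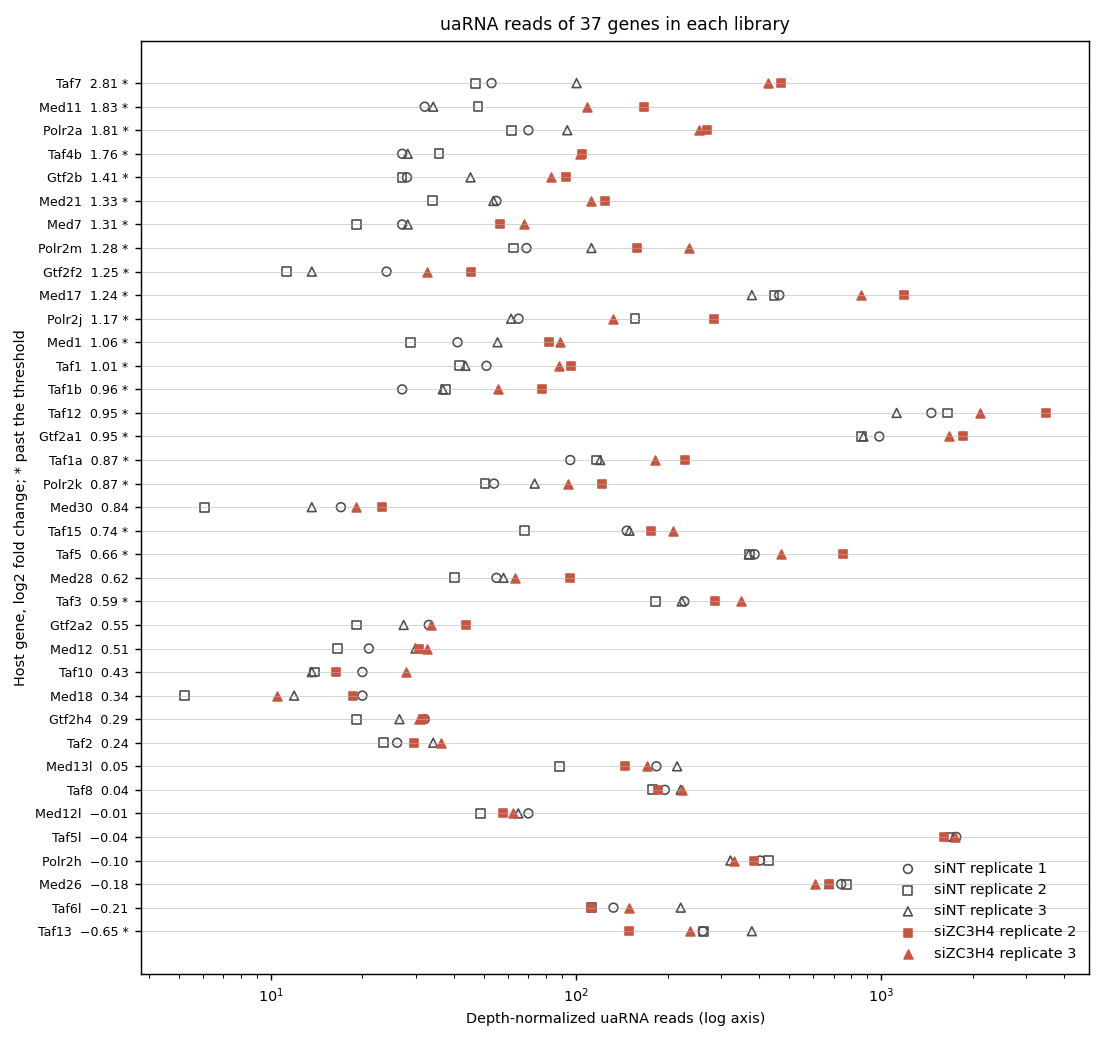
uaRNA level of each tested member in each library, in depth-normalised reads on a log axis, ordered by log2 fold change, with siNT libraries open and siZC3H4 libraries filled. Taf5l and Taf12 lie highest, the siZC3H4 points of Taf7, Med11, Polr2a and Taf4b lie above their siNT points, and those of Taf13 lie below.

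By family, 4 of 5 tested Pol II uaRNAs, 5 of 12 of Mediator, 9 of 15 of TAFs and TBP, and 3 of 5 of the general factors rose. Over all uaRNAs tested 62.1% rose, and the differences between these small families were not tested. In Pol II the uaRNA of Polr2a had 70, 61.7 and 93.9 reads in siNT and 269 and 254 in siZC3H4 libraries. The groups lay far apart, a 3.5-fold rise (log2 1.81 ± 0.27, SE, limma adjusted p = 9.66e-08). Polr2m, which binds Pol II and competes with TFIIF, rose with 69, 62.6 and 113 against 159 and 235 (1.28 ± 0.28, adjusted p = 9.94e-05). That of Polr2j rose, with 65, 157 and 61.4 against 284 and 133, so siNT replicate 2 lay above siZC3H4 replicate 3. Its adjusted p was 0.000795 with limma, 0.139 with DESeq2 and 0.229 without siZC3H4 replicate 2. Polr2k rose by 0.87 ± 0.30 but was not called without siZC3H4 replicate 2 (0.69, adjusted p = 0.143). That of Polr2h, a shared subunit, had 402, 430 and 322 against 385 and 330, which overlap (log2 -0.10 ± 0.23, adjusted p = 0.711). Under the median of ratios of the uaRNA reads it fell relative to the median uaRNA, at -0.99 (limma adjusted p = 0.00443). RefSeq places Clcn2 in the 1 kb upstream of Polr2h, and the data do not show which reads came from it.

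Among the Mediator members the rises were in the head and middle. The uaRNA of Med11, a small head subunit (chr11:70451918-70453727, plus strand, mm10), had 32, 47.8 and 34.1 reads in siNT and 168 and 109 in siZC3H4 libraries. Both siZC3H4 values were above 2 times any siNT value, and the log2 rise was 1.83 ± 0.31 (limma adjusted p = 1.43e-06). Med17, also of the head, had a far larger uaRNA, with 465, 447 and 378 against 1194 and 864, and rose by 1.24 ± 0.22 (adjusted p = 2.45e-06). Of the middle, Med21 rose by 1.33 ± 0.30, Med7 by 1.31 ± 0.35 and Med1 by 1.06 ± 0.32 on the log2 scale. In each of these the groups stood apart.

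Among the members, the kinase module and the tail held no rise in 3 and 2 tested uaRNAs. The uaRNAs of Ccnc, Cdk8 and Cdk19, kinase module genes that the symbol rule leaves out, all rose. The uaRNA of Med12 had 21, 16.5 and 29.9 reads against 30.6 and 32.5, just without overlap (log2 0.51 ± 0.38, limma adjusted p = 0.237). Those of Med12l and Med13l overlapped, with log2 differences of -0.01 ± 0.31 and 0.05 ± 0.28. Under the median of ratios Med12l fell relative to the median uaRNA, at -0.89 (limma adjusted p = 0.0198). In the tail, Med30 differed by 0.84 ± 0.46 and Med28 by 0.62 ± 0.31, and neither passed; Med30 did without siNT replicate 1 (adjusted p = 0.0464) and Med28 without siZC3H4 replicate 3 (0.0478). The difference between these modules and the others was not tested. The uaRNA of Med26, of the middle, was abundant and had 742, 773 and 677 against 679 and 609, with siZC3H4 replicate 2 just above siNT replicate 3 (log2 -0.18 ± 0.21, adjusted p = 0.445); its 95% interval ended at 0.24, below the median of all uaRNAs. Under the median of ratios it fell relative to the median uaRNA, at -1.07 (limma adjusted p = 0.0016).

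The largest uaRNA rise of all members was upstream of Taf7. It had 53, 47.0 and 101 reads in siNT and 470 and 425 in siZC3H4 libraries, a 6.99-fold rise (log2 2.81 ± 0.27, limma adjusted p = 1.71e-12). Every siZC3H4 value was more than 4 times any siNT value, while the exon reads of Taf7 overlapped between groups. RefSeq places Gm37013, Gm38666 and Gm38667 over the 1 kb upstream of Taf7, and the files do not show which reads came from them. Taf4b had 27, 35.7 and 28.2 against 105 and 103 and rose by 1.76 ± 0.32 (adjusted p = 5.18e-06). The uaRNA of Taf1 rose by 1.01 ± 0.30, with 51, 41.7 and 43.5 reads against 96.8 and 88.0; without siZC3H4 replicate 2 its adjusted p was 0.0547.

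With the authors' depth factors, Taf13 was the only member whose uaRNA fell. It had 261, 262 and 378 reads in siNT and 150 and 237 in siZC3H4 libraries, a 1.56-fold lower level (log2 -0.65 ± 0.25, SE, limma adjusted p = 0.0199). Both siZC3H4 libraries lay below all siNT libraries, replicate 3 by a small margin. The adjusted p was 0.13 without siNT replicate 3, 0.381 without siZC3H4 replicate 2 and 0.0555 with no filter on low values. Its uaRNA outnumbered its exon reads in siNT libraries, with 188, 226 and 258 uaRNA reads per 100 exon reads, and this fell to 83.9 and 115 in siZC3H4 libraries.

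Other TAF uaRNAs were abundant. That of Taf5l, a SAGA subunit, was the largest at 1729 ± 45.4 reads (SD, n = 3) and had 1768, 1679 and 1740 in siNT against 1615 and 1747 in siZC3H4 libraries. The groups overlapped (log2 -0.04 ± 0.19, limma adjusted p = 0.855), with a 95% interval from -0.43 to 0.35. Under the median of ratios it fell relative to the median uaRNA, at -0.93 (limma adjusted p = 0.00238). Urb2 starts 576 bases upstream of Taf5l on the other strand in RefSeq, and the files do not show which reads came from it. The uaRNA of Taf12, a histone-fold TAF, had 1465, 1660 and 1127 against 3488 and 2110 and rose by 0.95 ± 0.21 (adjusted p = 8.65e-05). Without siZC3H4 replicate 2 it differed by 0.59 and was not called (adjusted p = 0.0653). It too exceeded the exon reads of its gene, with 306 to 431 uaRNA reads per 100 exon reads in siNT and 582 to 849 in siZC3H4 libraries. Taf6l, of SAGA, was not called, at -0.21 ± 0.27 with overlapping groups, nor was Taf10, at 0.43 ± 0.43. Under the median of ratios Taf6l fell relative to the median uaRNA, at -1.09 (limma adjusted p = 0.0118), and so did Taf8, at -0.85 (adjusted p = 0.0105).

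Of the general factors, the uaRNA of Gtf2b had 28, 27.0 and 45.2 reads in siNT and 92.8 and 83.2 in siZC3H4 libraries and rose by 1.41 ± 0.33 (limma adjusted p = 0.000215). The groups were well apart, beside exon reads of Gtf2b that did not differ detectably. Gtf2f2, the smaller TFIIF subunit, rose by 1.25 ± 0.40 from a low level of 16.3 ± 6.75 reads but was not called without siZC3H4 replicate 2 (1.02, adjusted p = 0.137). Gtf2a1, with 1 RefSeq snoRNA gene inside it, had the most abundant uaRNA of this family, with 989, 864 and 877 against 1854 and 1669, and rose by 0.95 ± 0.20 (adjusted p = 5.76e-05). Gtf2h4, which had the largest exon difference, differed in its uaRNA by 0.29 ± 0.37 with overlapping groups.

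Because the depth factor is shared by both tables, the log2 ratio of uaRNA to exon reads within a library compares both changes in the same gene. This ratio rose for 17 of 37 members and fell for 1, Taf13, against 53.9% and 1.23% of 5106 pairs over all genes, with a median of 0.76 against 0.87. Those whose uaRNA rose but whose ratio passed no test were Taf3, Taf5, Taf15 and Polr2k. The ratio of Taf7 rose by 2.75 ± 0.35 (SE, limma adjusted p = 0.000166), from 6.88, 8.79 and 5.43 uaRNA reads per 100 exon reads in siNT to 68.0 and 32.8 in siZC3H4 libraries. The ratio rose by 1.59 ± 0.36 for Polr2a (adjusted p = 0.00297) and by 1.58 ± 0.32 for Med11 (adjusted p = 0.00165). For Taf13 it fell by 1.17 ± 0.28 on the log2 scale (adjusted p = 0.0042). Without siZC3H4 replicate 2 the ratio rose for 4 members, Med11, Polr2a, Taf4b and Taf7, and fell for 0, beside 17.9% and 0.333% of all pairs, with Taf13 at an adjusted p of 0.0778.

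**Figure D5:**
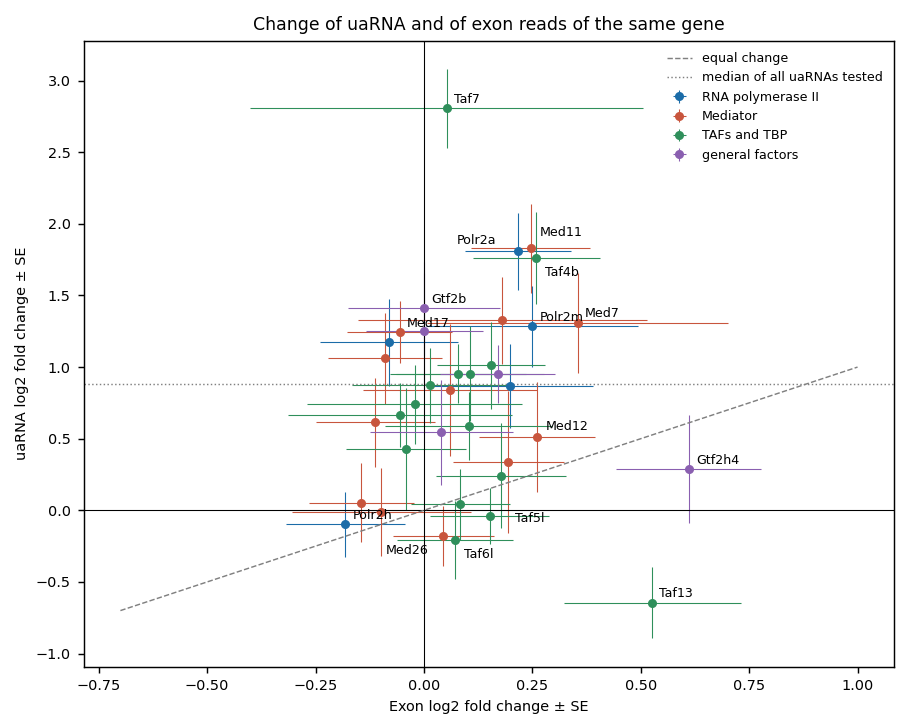
Log2 change of each tested uaRNA (vertical axis) against that of the exon reads of its gene (horizontal axis), siZC3H4 minus siNT, with SE bars from limma, coloured by family. Taf7, Med11, Polr2a and Taf4b stand above the rest, Taf13 lies lowest at -0.65, and exon changes stay between -0.18 and 0.61.

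Among these 37 members the size of the uaRNA change had little relation to the exon change (Pearson r = 0.02, Spearman rho = 0.16), to the exon level per kb in siNT libraries (0.10 and 0.05) or to the span of the gene (-0.14 and -0.06). With the uaRNA level in siNT libraries, which enters the change itself, r was -0.30 and rho -0.26. The genes share the same 5 libraries, and these values are descriptions. For promoters by outcome, the 17 with a risen uaRNA and a matched promoter had a median GC content of 58.3% and 22 CpGs, and the 13 tested without a rise had 58.0% and 20. CCAAT was in 9 of the 17 and 4 of the 13, GGGCGG in 10 and 10, CGGAAG in 9 and 7, ATGGCG in 3 and 0, and TATAAA in 2 and 3. On the antisense strand upstream of the start, where a uaRNA would run, the splice donor letters GGTAAG were in 1 of 17 and 0 of 13, GGTGAG in 0 of 17 and 0 of 13, and the poly(A) signal letters AATAAA in 0 of 17 and 0 of 13. Over all 63 member promoters these were in 4.76%, 11.1% and 6.35%, and over all promoters in 3.72%, 8.17% and 9.49%. The differences by outcome were not tested.

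A uaRNA was listed for 43 of 78 members and for 5867 of all 13088 genes. Among the members, listing went with the neighbours, which were not examined for all genes. Of the 35 members with none listed, 18 had the start of a RefSeq gene on the other strand within 1 kb upstream, against 1 of the 43 listed, that of Taf5l. Such neighbours included Paf1 at Med29, Rpl7a at Med22, Hps5 at Gtf2h1, Cnpy4 at Taf6 and Rabl3 at Gtf2e1. The sources used here do not say how the authors chose the uaRNA regions. A RefSeq gene also reached into the 1 kb upstream of 7 of the 43 listed members. These were Polr2h (Clcn2), Med1 (Gm38963), Gtf2f2 (Gm36429), Taf10 (Tpp1), Gtf2a2 (Bnip2), Taf7 and Taf5l. Which reads came from these genes is not known. Taf6, Gtf2e1, Med9, Med29, Polr2e and Gtf2f1, all with exon differences described above, were among those not listed, as were Tbp, Polr2b and Med14.

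The partners of this machinery that the symbol rule leaves out were read in the same way. Of 29 such genes 28 were in the exon table, and 0 rose or fell in exon reads, with a median log2 difference of 0.03. Of their 16 tested uaRNAs 14 rose and 0 fell, beside 62.1% of all, and the median was 1.20 against 0.88 over all uaRNAs. These calls use the authors' depth factors and were not examined under other scalings or with a library left out. The uaRNAs of all 3 kinase module genes outside the rule rose. On the log2 scale, Ccnc rose by 0.90, Cdk19 by 0.98 and Cdk8 by 1.04. The uaRNAs of all 5 TFIIS and tail phosphatase genes also rose. That of Btaf1, an ATPase that removes TBP from DNA, rose by 1.73, and that of Supt3, of SAGA, by 1.35. The uaRNAs of Gpn2, a Pol II import factor, and of Cdk7, the TFIIH kinase, did not pass, at 0.43 and -0.37.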

How the data were processed

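TT-seq, the sequencing of 4-thiouridine-labelled nascent RNA, was analysed in 3 siNT and 2 siZC3H4 libraries. The kit kept strand, per the labels. Per the submitters' processing notes, cutadapt 1.14, STAR, featureCounts and DESeq2 were used with builds mm10 and dm6. The authors deposited depth-normalised signal for 13088 genes over exons and for 5867 uaRNA regions named by their host gene. Dividing each library by its factor (1, 1.15, 1.172, 1.767 and 1.046, the same in both tables) had been done before deposit: 100% of the values gave whole reads within 0.01. The sources used here do not say how the factors were made. The uaRNA table gives no coordinates.

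Tests used limma 3.58.1 (lmFit, eBayes with trend) in R 4.3.3 on log2(value + 1), siZC3H4 minus siNT, without a block, over all features with a mean of 10 or more. P-values were adjusted by Benjamini-Hochberg over all features tested (12482 genes, 5124 uaRNAs, 5106 uaRNA to exon ratios), with a threshold of 0.05. "Rose" and "fell" are used for features past it. Fold changes on this scale understate changes of low features. Alternatives were pseudocounts of 0.5 and 10, other filters, scaling each table on itself, edgeR 4.0.16 and DESeq2 1.42.0 on recovered reads, the replicate number as a block, and each library left out.

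The series' design text calls the replicates biological; the labels do not say that cultures were separate, so p-values measure only the spread between these samples.

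Members, gene lists and tests were chosen with earlier results of these data known. Named with values were a list of core subunits, the 5 largest and 5 lowest exon differences, the 10 largest uaRNA rises past the threshold, the 5 lowest uaRNA differences, the extremes of level per kb in each role, and the highest uaRNA; further genes in the text were chosen after their values were seen. Role lists came from textbook complexes. Promoters and neighbouring genes were taken from RefSeq (GRCm38.p6).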

Additional observations from a re-analysis of the deposited data

How the results depend on the processing

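Depth and 5 libraries limit what could be called: 6 member uaRNAs were too low to test, and the fits that leave 1 siZC3H4 library assume that it varies like the siNT libraries. Log2 differences are siZC3H4 minus siNT. Causes of the changes below were not tested, except that scaling the uaRNA table on itself sets the median of all uaRNAs near 0 by construction. Pseudocounts, edgeR and a mean of 50 or more left the count of member calls within 1.5 times in each comparison where they were run. For exon reads, the replicate block, which drops siNT replicate 1, gave 5 members that rose (Gtf2e1, Gtf2h4, Med9, Taf13 and Taf6) and 1 that fell (Gtf2f1), where 1530 and 830 of all genes did. DESeq2 gave 1 member that rose, with 537 and 97 of all genes; no filter gave 38 and 0, and the median of ratios 29 that fell. Leaving out each library gave 0 to 2 members that rose, 2 to 676 genes that rose and 0 to 138 that fell. For uaRNAs, the median of ratios and TMM each gave 4 members that rose and 7 that fell, with 537 and 560 of all uaRNAs rising and 590 and 563 falling; no filter gave 0 members and 34 uaRNAs that fell. Leaving out each library gave 12 to 21 members that rose, 0 or 1 that fell, and 1840 to 3097 and 16 to 88 of all uaRNAs. For the ratio these ranges were 4 to 18, 0 to 1, 916 to 2679 and 17 to 69. The replicate block gave 23 members that rose in the ratio and 22 in uaRNAs, with 1 that fell in each. In that fit the median log2 difference in the ratio was 0.80 for members and 0.95 for all pairs. In uaRNAs these medians were 0.81 and 0.92. Same-numbered libraries deviated together (r = 0.528 and 0.618 over genes in exon reads), but only 2 pairs share a number and the labels name no shared batch. Deviations of the 2 siZC3H4 libraries from their mean mirror each other, so these r values are not independent of each other.

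Exon differences near 0 turned sign. Under the median of ratios, TMM and the replicate block they were -0.04, -0.027 and -0.0074 for Gtf2b and -0.029, -0.016 and -0.061 for Gtf2h1; for Taf7 they were -0.087 with edgeR, -0.082 with DESeq2 and -0.071 with the block. Over the left-out libraries the ranges were -0.20 to 0.20 for Gtf2b, -0.20 to 0.23 for Gtf2h1, -0.19 to 0.014 for Med1, -0.18 to 0.023 for Med14, -0.14 to 0.024 for Med17, -0.12 to 0.0032 for Med23, -0.030 to 0.12 for Med26, -0.090 to 0.19 for Polr2b, -0.099 to 0.089 for Polr2d, -0.17 to 0.092 for Taf10 and -0.40 to 0.56 for Taf7.

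Under the median of ratios and TMM, uaRNA differences turned to -0.32 and -0.29 for Gtf2a2, -0.57 and -0.55 for Gtf2h4, -0.35 and -0.32 for Med12, -0.83 and -0.81 for Med13l, -0.48 and -0.46 for Med18, -0.26 and -0.24 for Med28, -0.41 and -0.39 for Taf10, -0.15 and -0.12 for Taf15, -0.62 and -0.60 for Taf2, -0.30 and -0.27 for Taf3, -0.23 and -0.20 for Taf5 and -0.85 and -0.82 for Taf8; the median of ratios alone gave -0.013 for Polr2k and -0.013 for Taf1a. Med13l was -0.041 with edgeR and -0.040 with DESeq2, and Med12l 0.090 with the replicate block. Over the left-out libraries the ranges were -0.17 to 0.090 for Med12l, -0.33 to 0.30 for Med13l, -0.13 to 0.75 for Med18, -0.22 to 0.014 for Polr2h, -0.098 to 0.015 for Taf5l, -0.41 to 0.076 for Taf6l and -0.088 to 0.17 for Taf8, and in the ratio -0.11 to 0.23 for Polr2h and -0.52 to 0.059 for Taf6l.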
